A study of Homo sapiens with 12 samples.

Results

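The regions described here were m6A peaks in 5' untranslated regions (5' UTRs) that stood in both conditions of an experiment that silenced WTAP. The cells were Kasumi-1, a human line of myeloblastic leukaemia that carries the RUNX1-RUNX1T1 fusion. N6-methyladenosine (m6A) is a methyl mark on adenosines inside mRNA. A peak was taken when its annotation was 5' UTR and its exonic blocks overlapped those of any peak in the other condition's list by at least 1 bp, with strand ignored. That held for 5383 of the 6680 5' UTR peaks in the control list and for 5570 of the 6622 in the shWTAP list. Together they were 10953 of the 71192 peaks listed for both conditions. The peak calls chose these regions, so their enrichment, length and overlap are described with no test. They are called shared 5' UTR peaks below.

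Control cells stably carried a scramble short hairpin RNA (shRNA) from a lentiviral vector, and shWTAP cells carried an shRNA against WTAP from the same kind of vector. The cell line's genotype is labelled WT in every sample. Both groups were put under puromycin at 2 µg/ml from 48 h after transfection, for 24 h or longer, so both carry a vector and went through selection. The labels name the WTAP shRNA by its target alone, and they name no clone. The 12 libraries were 3 inputs and 3 m6A immunoprecipitations (IP) per group. The peaks came as 1 list per condition, IP against input, and the expression values covered the 6 inputs.

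WTAP is a regulatory subunit of the nuclear complex that writes m6A, in which METTL3 is the catalytic subunit and METTL14 its partner. Most m6A in mRNA lies near stop codons and in 3' UTRs, and a smaller part lies near the cap. In 5' UTRs the mark has been linked to translation that does not need the cap-binding factor eIF4E, above all in stress. Antibodies against m6A also bind m6Am, a dimethylated adenosine that PCIF1 writes on the first transcribed base next to the cap, so a peak at a transcript start can hold either mark.

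The peak lists hold no sequence, so the start of the transcript was read from RefSeq's promoter table (GRCh38.p14) for genes with a start inside a shared 5' UTR peak. The stretches below lie within the first 50 transcribed bases, are given 5' to 3' on the strand of the gene, and show GGAC, the core of the commonest m6A sequence context, in capitals. The first 5 genes were chosen because they had peaks with some of the highest fold enrichments, and the last 3 because their mRNA level differed between the groups. A gene was printed only if such a window held GGAC, and others were passed over. The presence of the word in every stretch is therefore no result.
CAPNS1, chr19:36140080-36140109, plus strand: gccctccggagccGGACgctgcgggaggcc
GNB1, chr1:1891038-1891067, minus strand: ccgatggctggaggcgtctgaggggcGGAC
DHX36, chr3:154324453-154324482, minus strand: ggcttccgggcccGGACgccatttccagcg
CNOT6, chr5:180494379-180494408, plus strand: gagGGACggcggccgccgccatgatgcttg
APBA3, chr19:3761643-3761672, minus strand: ggatagaggagcgggcgccgGGACcgggaa
CEACAM6, chr19:41755530-41755559, plus strand: acagaaggaggaaGGACagcagggccaaca
HMGCS1, chr5:43313383-43313412, minus strand: gcGGACtgtcctttcgtggctcactccctt
PCNP, chr3:101574200-101574229, plus strand: ggccgcggcggggaaaatggcGGACgggaa
The letters show that the word is present and do not place a methyl group. In CAPNS1, DHX36, CNOT6 and PCNP a G follows GGAC, so these words are outside the set of m6A words searched below. The base after the GNB1 word lies outside the window and was not read. The CAPNS1 stretch lies in a control peak with a fold enrichment of 106, beside the one listed at 749, and the HMGCS1 stretch lies in a shWTAP peak and in no control peak. In CNOT6 and HMGCS1 the word begins 4 and 3 bases from the start, and in GNB1 it ends the 50-base window.

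Over all shared 5' UTR peaks, 3322 RefSeq start windows of 50 bases, from 2836 genes, lay inside a peak. Each was searched on the strand of the gene for the 18 five-letter words that have A, G or T first, A or G second, AC next and A, C or T last, and for GGAC, which some of them contain. A word of the set was in 41.0% of these windows and GGAC in 22.0%. In the 828 windows inside 5' UTR peaks of 1 list alone the shares were 38.8% and 18.8%, and in 5207 windows of tested genes with no 5' UTR peak they were 38.5% and 18.7%. Of all 35116 windows of the table, 49.6% held a word and 18.9% held GGAC, at a median GC content of 60% against 66% for the windows inside shared peaks. The first 3 sets were close in the share with a word, which was higher over all windows of the table. For GGAC the windows inside shared peaks stood at 22.0%, and the other sets lay between 18.7% and 18.9%. The first transcribed base was an A in 51.3% of the windows inside shared peaks and in 52.4% of those inside 5' UTR peaks of 1 list. It was an A in 40.5% of the windows of tested genes with no 5' UTR peak, at the same median GC content of 66%, and in 44.4% of all windows. These shares are descriptions. Genes can have several windows, and the part of m6Am or of expression level in the share of A was not tested. When the windows were split into 3 equal classes by fold enrichment, the share with a word ran from 39.7% to 42.0% in the control list and from 39.6% to 41.7% in the shWTAP list. The share starting with A was 54.7%, 51.9% and 48.4% from the lowest to the highest class in control, and 49.2%, 53.5% and 50.6% in shWTAP, so the lists show no common order.

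Most 5' UTR peaks of either list were found in the other. The share with an overlap was 80.6% in the control list (95% Wilson interval 79.6% to 81.5%) and 84.1% in the shWTAP list (83.2% to 85.0%). For 3' UTR peaks it was 85.9% in each list, and for peaks annotated Exon it was 79.2% in control and 78.1% in shWTAP. Intervals cover counting error alone, since each condition has 1 list and no peak has a replicate. The 5' UTR shares thus lay below those of 3' UTR peaks in both lists, by less in shWTAP. The overlap was often partial: when at least 0.5 of the exonic length of both peaks had to overlap, 3924 control peaks (58.7%) and 3920 shWTAP peaks (59.2%) remained. The label 5' UTR was kept on both sides in most cases, as 92.9% of the control members and 91.7% of the shWTAP members overlapped at least 1 peak that was itself annotated 5' UTR. The same gene was assigned on both sides for 96.9% and 96.5%.

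**Figure D1:**
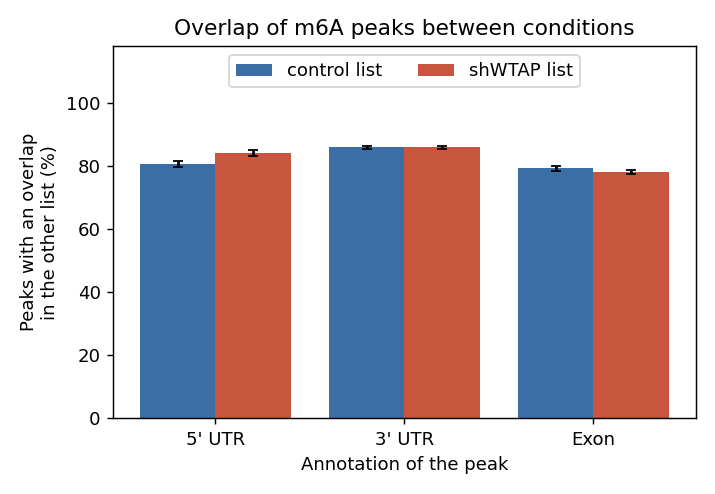
Share of m6A peaks (%) whose exonic blocks overlap a peak of the other condition's list, by annotation. Bars are the control and shWTAP lists and error bars are 95% Wilson intervals; the 5' UTR bars stand at 80.6% and 84.1%, below the 85.9% of both 3' UTR bars.

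The rule has an edge at 1 bp of overlap. Just inside it, with 1 bp of overlap, were peaks of CTPS2, PHF8 and UQCRHL in the control list and of CTPS2, UTP11 and UBAP2L in the shWTAP list. Their fold enrichments were 6.77, 5.64 and 1.98, and 6.75, 2.62 and 3.45. Just outside it were control peaks of ZNF142, PFN4 and FAM227A, at gaps of 0, 4 and 6 bp with enrichments of 18.0, 6.77 and 11.3, and shWTAP peaks of AC244197, SPSB2 and PCBD2, at gaps of 6, 8 and 11 bp with enrichments of 10.6, 6.75 and 5.40. In each list the middle value of the 3 peaks outside the edge was above that of the 3 inside. Nothing is read from so few peaks, and over all 5' UTR peaks the shared ones had the higher median, as given below.

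Shared peaks were longer and stronger than the 5' UTR peaks of 1 list. Fold enrichment, the authors' ratio of IP over input for a peak, had a median of 6.77 in control (quartiles 3.58 and 13.5, highest 791) and of 6.75 in shWTAP (3.52 and 12.5, highest 935). In 5' UTR peaks without an overlap the medians were 4.51 and 4.56. The exonic length was 390 bases at the median in control and 331 in shWTAP, against 181 and 151 bases for peaks without an overlap. The rule used the overlap, which long peaks meet more easily, so nothing is read from these contrasts. The peaks' p-values were at most 0.001 for 81.4% of the control members and 81.9% of the shWTAP members, and for 31.3% and 36.6% of the 5' UTR peaks without an overlap. Shared 3' UTR peaks were longer still, with medians of 599 and 539 bases.

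Fold enrichment was not a smooth scale. The value 6.77 was listed for 185 control members and 7.90 for 161, and in shWTAP 7.72 stood for 168 and 6.75 for 157, with 979 and 991 different values in all. The median p-value of the members listed at 6.77 in control was 0.017. Enrichment was also lower in genes with more RNA. When the tested genes were split into 3 equal classes by mean input level, the median fold enrichment of control members was 7.18, 6.77 and 5.41 from the lowest to the highest class, and that of shWTAP members 7.14, 6.44 and 4.82. Members in genes below the expression filter had medians of 9.02 and 9.16.

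The shared peaks mostly sat at the start of the transcript. The exonic blocks held the first base of the assigned transcript in 83.7% of the control members and 80.9% of the shWTAP members, and the upstream edge fell exactly on that base in 40.7% and 31.6%. In 5' UTR peaks of 1 list the first base was held by 76.4% and 72.3%. For shared 3' UTR peaks it was held by 19.0% and 16.4%, and for shared Exon peaks by 35.6% and 32.1%. The middle of the exonic length lay 152 bases downstream of the start at the median in control (quartiles 45 and 509.5) and 132 bases in shWTAP (36 and 375.75), in genomic distance. In control, 67.9% of the members covered the position 100 bases downstream, 45.3% the position at 200 bases and 17.6% that at 500 bases. In shWTAP those shares were 64.0%, 40.1% and 14.9%. The cover thus fell off downstream in both lists, and was lower in shWTAP at each of these distances. The transcript was assigned by the authors, possibly as the nearest one, and the part of that assignment in the closeness to a start was not tested. The label 5' UTR, by which the peaks were chosen, names the part of a transcript at its start. Nothing is therefore read from the contrast with 3' UTR and Exon peaks.

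**Figure D2:**
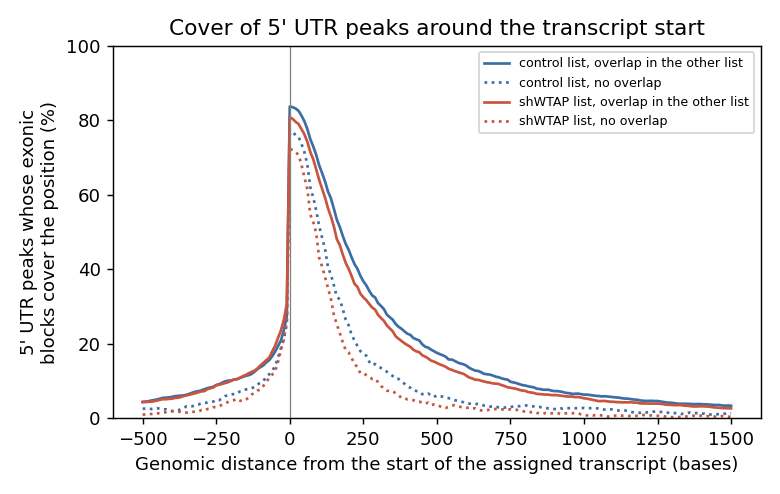
Share of 5' UTR peaks (%) whose exonic blocks cover each position, against genomic distance from the start of the assigned transcript (bases, positive downstream). Solid lines are peaks with an overlap in the other list and dotted lines those without; the solid lines peak at 83.7% (control) and 80.9% (shWTAP) at the start and lie above the dotted lines at 100, 200, 500 and 1000 bases.

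The tie between the lists was usually 1 peak to 1 peak. Of the control members 72.7% overlapped 1 shWTAP peak, 21.9% overlapped 2 and 5.37% overlapped 3 or more, up to 8. Of the shWTAP members 73.9% overlapped 1 control peak, 21.2% overlapped 2 and 4.92% overlapped 3 or more, up to 7. The median member had 96.1% of its exonic length covered by the other list in control and 100% in shWTAP. Both peaks of 3150 pairs were 5' UTR peaks that overlapped no other peak. The control peak was the longer in 49.0% of these pairs and the shWTAP peak in 33.9%, with medians of 359 and 301 bases. In 15.0% of the pairs the start and end were identical. Control peaks were the longer more often than shWTAP peaks among 8494 pairs of 3' UTR peaks (46.1% and 38.0%) and 4737 pairs of Exon peaks (46.4% and 39.7%) too, so the direction was common to all 3 annotations.

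Enrichment in the pairs went together across the lists. The log2 fold enrichments of the 3150 pairs of 5' UTR peaks correlated at Pearson r = 0.78 (Spearman rho 0.76), and 78.5% of the pairs lay within 2-fold of each other. In pairs of 3' UTR peaks r was 0.86 with 88.9% within 2-fold, and in Exon pairs it was 0.77 with 80.9%. The correlations are across peaks of 2 lists, which share gene structure and input level and are not independent replicates. The median fold enrichment of the 5' UTR pairs was 6.44 in control and 6.26 in shWTAP. With 1 list per condition no pair can be said to have gained or lost m6A.

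**Figure D3:**
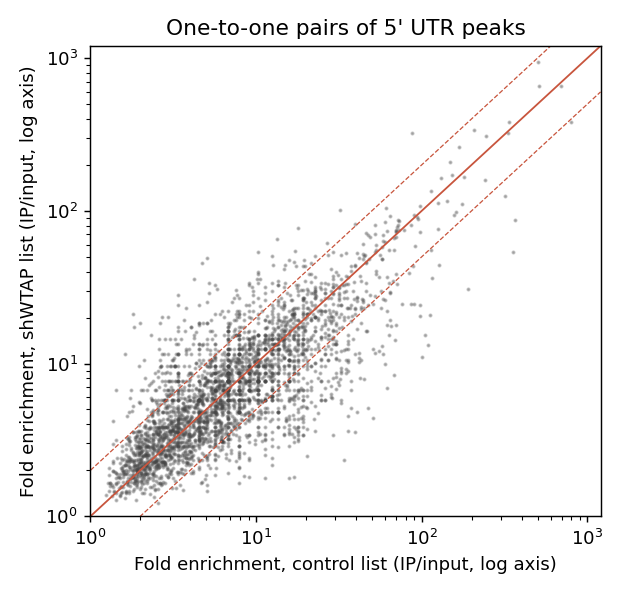
Fold enrichment (IP over input, log axes) of 3150 one-to-one pairs of overlapping 5' UTR peaks, control list on the x axis and shWTAP list on the y axis. The solid line marks equal values and the dashed lines a 2-fold difference; 78.5% of the points lie between the dashed lines.

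The highest enrichments belonged in good part to the same genes. A pair of enrichments given for a gene here and below is that of its highest shared 5' UTR peak in control and in shWTAP. Of 110 named genes with such a peak in both lists these were peaks that do not overlap each other in 8, which is said where such a pair is printed. DHX36, a helicase that unwinds G-quadruplexes, had the highest value in the shWTAP list, 935, and stood at 501 in the control list. Its peak ran over the same 900 exonic bases, chr3:154315024-154324487, in both lists. SENP3, a SUMO protease, had 695 in control and 657 in shWTAP over an identical interval, chr17:7561919-7563380. GNB1, a G protein beta subunit, had 512 and 652 at chr1:1832274-1891117, again identical. For these 3 genes the boundaries of the peak were the same in both lists, while the listed enrichment was higher in shWTAP for 2 and lower for 1. CAPNS1, the small regulatory subunit of calpain, had 749 in control and 387 in shWTAP. CNOT6, a deadenylase of the CCR4-NOT complex, had 334 and 382, and FLVCR1, a haem and choline transporter, had 208 and 336.

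Other peaks stood high in 1 list and well lower in the other. FBXW4, an F-box protein, had 695 in control and 85.6 in shWTAP over the same interval, chr10:101676670-101695295. ZNF316, a zinc finger protein, had 410 and 115, and PRRT4 had 364 and 86.8. APBA3, an adaptor protein, went the other way, with 86.9 in control and 324 in shWTAP. These differences had no replicate, and the input mRNA of these 4 genes did not pass the test between groups (limma, a moderated linear model, adjusted p from 0.382 to 0.908). SENP3 lies under a second listed gene of the same strand, the readthrough SENP3-EIF4A1, and APBA3 under AC005954, so reads there can be split between genes.

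The highest value of the control list carried a doubtful gene name. The peak with a fold enrichment of 791 was assigned to ADAMTS7, a secreted metalloproteinase, on the minus strand. Its interval, chr15:78810487-78873779, began on the first base of MORF4L1, a chromatin protein gene on the plus strand, as the expression table places it. The shWTAP peak it overlapped, with a fold enrichment of 382, was assigned to MORF4L1. ADAMTS7 was measured at 0.128, 0.0884 and 0.0731 FPKM in the control inputs, and MORF4L1 at 42.2, 41.6 and 44.5 FPKM, where FPKM is the fragment count scaled by the authors to gene length and library total. The input level at this place was therefore almost all that of MORF4L1, and the enrichment is given by position and not credited to ADAMTS7.

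The shared peaks belonged to 4482 genes in control and 4550 in shWTAP, 4968 in all. A single shared peak was held by 82.9% and 81.4% of them, and 3 or more by 2.54% and 3.25%. ANKHD1, which encodes an ankyrin repeat protein, held 6 in each list and CHD9, a chromatin remodeller, held 5 in each. MANBA, the lysosomal beta-mannosidase, held 5 in control, and MROH7 held 5 in shWTAP. Several members of 1 gene share its RNA and are not independent. A 3' UTR peak was also listed for 59.6% of the genes in control and 60.5% in shWTAP, close to the 59.9% and 59.3% of all genes with any peak. Genes with an Exon peak and no 5' UTR peak had a 3' UTR peak in 26.1% and 26.7% of cases. In 28.0% of the genes of either list the gene had neither a 3' UTR nor an Exon peak in that list.

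The input libraries came from cells with the RNA of a myeloid leukaemia line. Of 9 measured myeloid and progenitor markers all but CD38 were present, from ANPEP at 2.89 to 4.71 FPKM up to MPO, the granule peroxidase, at 1296 to 1550.3 FPKM. CD38 was near 0, between 0.0183 and 0.0973 FPKM. Of 14 measured markers of other lineages, 12 stayed below 1 FPKM in every library, while CD3D (48.7 to 60.4 FPKM) and EPCAM (38.6 to 50.2 FPKM) did not. The libraries listed 11216 to 11392 genes at 1 FPKM or more and correlated at 0.975 to 0.991 within a group. The share of mitochondrially encoded mRNA was 0.634% for control 3 and 0.631% for shWTAP 1, while the remaining 4 libraries lay between 0.301% and 0.333%. Those 2 libraries stand apart, 1 in each group, and results that rest on them are given without them as well. In bulk RNA fewer cells of a kind and less RNA per cell cannot be told apart.

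WTAP, the target, itself had a shared 5' UTR peak. The peak lay at chr6:159727525-159736259 in control and chr6:159727555-159736289 in shWTAP, with 181 exonic bases and fold enrichments of 2.33 and 2.29. Its mRNA was measured at 11.5, 11.2 and 11.7 FPKM in control and at 6.97, 6.48 and 5.69 FPKM in shWTAP. Every shWTAP library lay below every control library. The mean fell to 55.6% of control (log2 change -0.76, SE 0.08, limma adjusted p = 0.00663), and the exact 2-sided permutation test gave p = 0.1, the smallest that 3 against 3 libraries allow. The targeted mRNA was thus reduced and not removed.

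The rule for shared peaks used no input FPKM, so the difference in input FPKM between the groups was tested. The peaks were IP against input, so the input libraries did enter the peak lists. A gene was called when its limma adjusted p, over all tested genes, was under 0.05. Of the 4968 genes of shared 5' UTR peaks 3934 passed the filter of at least 1 FPKM in at least 3 libraries. Of these 170 were called, 61 higher and 109 lower in shWTAP, or 4.32% against 3.89% of all 11383 tested genes. The higher calls were 1.55% against 1.48% and the lower calls 2.77% against 2.42%. The members' shares stood near those of all genes, so the count is no result particular to them. Their median log2 change was -0.03, as it was for all tested genes. The input values of the groups did not overlap for 1197 members, 30.4% against 28.2% of all tested genes. Of the 170 called members 47 changed by at least 1.5-fold on the log2(FPKM + 1) scale, 15 up and 32 down. Called or not, 1.68% of the tested members changed by that much, against 2.36% of all tested genes.

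The number of calls depended on shWTAP 1. Without that library 999 of the 3934 member genes were called, against 2751 of all 11383 tested genes. Without both libraries of high mitochondrial mRNA 1137 members were called, against 3142 of all tested genes. In each case all 170 were among them. Leaving out any other single library left 11 to 25 members, against 46 to 81 of all tested genes. The count over all tested genes thus swung together with that of the members. The median log2 change of the members was -0.03 between the 2 libraries rich in mitochondrial mRNA and -0.04 between the groups of the remaining 4. No called member turned its direction in any of the 15 alternatives. The groups did not overlap for any of the 170, so leaving out libraries could not turn a direction, and nothing is read from this.

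By expression level, members in the highest of the 3 classes of tested genes were called in 6.47% of cases against 4.93% for the other genes of that class. In the middle class the shares were 3.38% and 3.50%, and in the lowest 2.74% and 2.71%. Members were 27.9% of the lowest class, 38.2% of the middle and 37.5% of the highest. Genes with 5' UTR peaks in 1 list alone were called in 3.32% of cases, genes with a shared 3' UTR peak and no 5' UTR peak in 3.49%, and genes with no peak in 3.91%.

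Of the 11 m6A writer genes tested, 5 had a shared 5' UTR peak, namely WTAP, METTL3, ZC3H13, RBM15B and METTL16. Of these, WTAP fell and the other 4 did not pass the test. RBM15B, an RNA-binding subunit of the complex, had fold enrichments of 11.3 and 2.77 and input levels of 8.12, 7.54 and 8.06 FPKM in control against 8.87, 10.1 and 9.49 FPKM in shWTAP. All 3 shWTAP values were above all 3 control values, and the difference missed the threshold (limma adjusted p = 0.109). ZC3H13, a scaffold of the complex, had enrichments of 7.33 and 3.86, METTL3 had 4.07 and 4.39, and METTL16, a separate m6A methyltransferase, had 1.88 and 2.81. METTL3 stood at 7.50 ± 0.31 FPKM (SD, n = 3) in control and 8.39 ± 0.63 FPKM (SD, n = 3) in shWTAP, with a limma adjusted p of 0.301. Among the writers without a shared 5' UTR peak RBM15 fell, from 6.78 ± 0.31 to 4.87 ± 0.44 FPKM (SD, n = 3 each, log2 change -0.41, SE 0.08, limma adjusted p = 0.0397, called in 8 of 15 alternatives). PCIF1, the m6Am writer, was at 9.14 ± 1.1 and 9.10 ± 0.86 FPKM (SD, n = 3 each, limma adjusted p = 0.988).

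Among the rises, CEACAM6 and HMGCS1 were called under each of the 15 alternatives. CEACAM6, a cell adhesion molecule of granulocytes and epithelia, was measured at 22.3, 23.1 and 23.8 FPKM in control and 57.4, 63.7 and 67.1 FPKM in shWTAP. The groups were far apart, with the lowest shWTAP value more than 2-fold above the highest control value. The log2 difference of CEACAM6 came to 1.40 (SE 0.08, limma adjusted p = 0.000455). Its 5' UTR peak, chr19:41751695-41761279 in control, had enrichments of 2.06 and 2.27. HMGCS1, the synthase that makes HMG-CoA for cholesterol synthesis, was measured at 36.0, 39.9 and 42.4 FPKM in control and 67.0, 65.1 and 67.9 FPKM in shWTAP. The shWTAP libraries were high without exception (log2 change 0.75, SE 0.07, limma adjusted p = 0.00663). The HMGCS1 peak was weak in control, with an enrichment of 2.82 over 91 exonic bases, and had 8.68 over 211 bases in shWTAP. CA11, a protein of the carbonic anhydrase family without enzyme activity, was called under all 14 alternatives that tested it and rose from 1.55, 1.67 and 1.65 FPKM to 3.42, 3.38 and 3.68 FPKM (log2 change 0.78, SE 0.07, limma adjusted p = 0.00518). Its groups did not overlap, and its peaks had the highest enrichment among the 10 largest rises, 126 in control and 76.5 in shWTAP.

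S100A4, a calcium-binding protein tied to cell motility, was at 7.37, 8.26 and 7.01 FPKM in control and at 14.1, 16.6 and 19.4 FPKM in shWTAP. Every shWTAP library was above every control library (log2 change 1.04, SE 0.12, limma adjusted p = 0.00835). SIGLEC6 and CD22, both sialic acid-binding lectins of the Siglec family, rose from low levels. SIGLEC6 went from 1.70 ± 0.31 to 3.92 ± 0.47 FPKM (SD, n = 3 each, log2 change 0.87, limma adjusted p = 0.0134). CD22, which overlaps U62631 on its strand, went from 0.529 ± 0.11 to 1.52 ± 0.12 FPKM (SD, n = 3 each, log2 change 0.72, limma adjusted p = 0.0134). SIGLEC6 was called in 9 and CD22 in 8 of the 14 alternatives that tested them, and S100A4 in 12 of 15. IDS, the lysosomal iduronate sulfatase, C17orf58 and FAM117A completed the 10 largest rises with log2 changes of 0.67, 0.71 and 0.65. IDS overlaps AC244197 on its strand. Its member peak, with an enrichment of 57.5, was listed in control and ran to chrX:149526264, past the gene's start at 149521096. C17orf58 had its member peak in shWTAP alone.

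The largest rise by the numbers, PIK3R2, is uncertain. PIK3R2, a regulatory subunit of PI3 kinase, was listed at 0.0843, 0.0698 and 0.0603 FPKM in control and at 4.67, 5.54 and 5.76 FPKM in shWTAP, and limma called it (adjusted p = 4.75e-05, log2 difference 2.56). On the same strand AC007192 spans PIK3R2, and it was at 4.55, 4.85 and 4.52 FPKM in control and listed at 0 in every shWTAP library. The sum of both was 4.71 ± 0.19 FPKM in control against 5.32 ± 0.58 FPKM in shWTAP (SD, n = 3 each). The summed level of both genes thus moved far less than either gene, and the rise of PIK3R2 is not reported as a change of its mRNA. Of the 170 called members 22.4% shared part of their span and strand with another gene of the table, as did 30.1% of the other tested members.

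Among the falls, MYDGF and GYS1 were called under each of the 15 alternatives, beside WTAP. MYDGF, a growth factor secreted by myeloid cells, was measured at 32.9, 30.8 and 29.3 FPKM in control and at 9.76, 9.54 and 8.04 FPKM in shWTAP. The shWTAP libraries were low without exception (log2 change -1.66, SE 0.09, limma adjusted p = 0.000455). Its 5' UTR peak covered the same 180 bases, chr19:4670183-4670362, in both lists, with enrichments of 2.62 in control and 3.34 in shWTAP. GYS1, the glycogen synthase of muscle and most other tissues, was measured at 22.9, 23.5 and 23.5 FPKM and at 10.4, 11.5 and 11.3 FPKM. Its groups lay well apart (log2 change -1.01, SE 0.06, limma adjusted p = 0.00136), and its peak had an enrichment of 3.65 over 538 exonic bases in control and of 1.88 over 270 in shWTAP. ERLIN1, an endoplasmic reticulum protein that binds cholesterol, and FKBP4, a cochaperone of HSP90, also held under every alternative and are named after their values were seen. ERLIN1 fell from 27.5 ± 1.2 to 17.0 ± 0.78 FPKM (SD, n = 3 each, log2 change -0.66, SE 0.07, limma adjusted p = 0.00663). FKBP4 fell from 107.7 ± 3.6 to 69.5 ± 3.4 FPKM (SD, n = 3 each, log2 change -0.63, SE 0.06, limma adjusted p = 0.00663).

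In several of the other large falls shWTAP 1 stood nearest to the controls. PCNP, a nuclear protein, was at 48.2, 47.6 and 53.9 FPKM in control and at 30.4, 23.2 and 23.4 FPKM in shWTAP (log2 change -0.94, SE 0.11, limma adjusted p = 0.0104). KIF5B, a kinesin motor, was at 45.9, 42.8 and 48.8 FPKM and at 31.9, 21.7 and 22.6 FPKM (log2 change -0.85, SE 0.14, limma adjusted p = 0.0255). MDFIC, a regulator of transcription, was at 15.0, 14.8 and 17.4 FPKM and at 9.67, 7.06 and 6.89 FPKM (log2 change -0.93, SE 0.13, limma adjusted p = 0.0154). In each of these 3 genes shWTAP 1 was the highest shWTAP library and still lay below every control. WARS1, the cytosolic tryptophanyl-tRNA synthetase, fell from 32.1 ± 0.76 to 16.4 ± 2.4 FPKM (SD, n = 3 each, limma adjusted p = 0.00687). The peak assigned to it, chr14:100376418-100381640 in both lists, had enrichments of 14.5 and 59.8. WARS1 starts at 100376805 on the minus strand, so most of that interval lies outside the gene. These enrichments are given by position and not credited to WARS1. MCFD2, a cargo receptor subunit of the secretory pathway, SIPA1L2 and NAA50, an N-terminal acetyltransferase, fell by 0.81, 0.76 and 0.75 on the log2 scale, and NAA50 overlaps AC108693 on its strand. WARS1 was called in 14 of 15 alternatives and PCNP in 11, while KIF5B, MDFIC, MCFD2 and NAA50 were called in 8 and lost their calls when any library other than shWTAP 1 was left out. The groups did not overlap in any of the 20 named rises and falls. Their direction was bound to be the same in the 2 libraries rich in mitochondrial mRNA and in the remaining 4, and is no check.

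**Figure D4:**
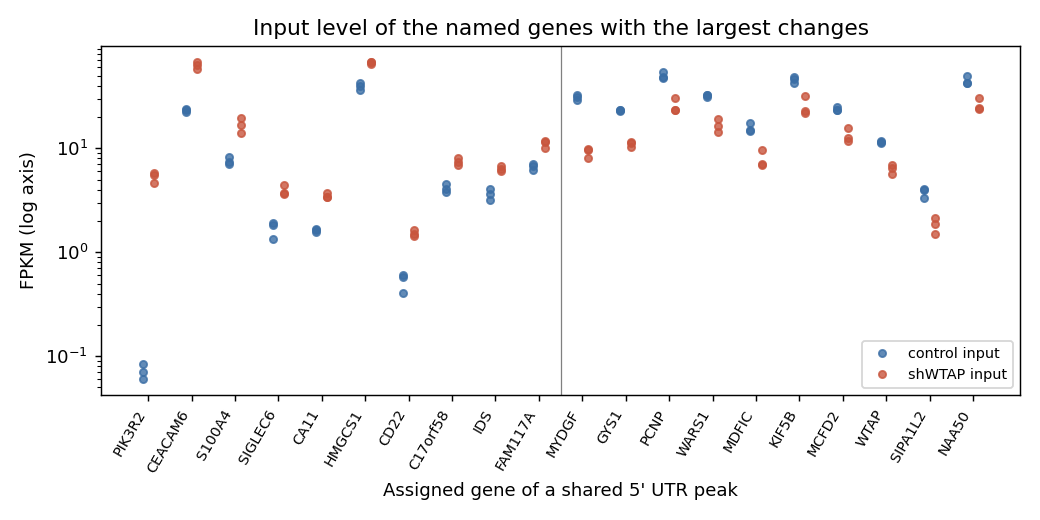
Input level (FPKM, log axis) of the 20 genes with the largest rises (left of the line) and falls (right of it) among called genes of shared 5' UTR peaks, 1 point per library, 3 control and 3 shWTAP. The groups do not overlap in any of the 20; PIK3R2, at the far left, is uncertain because AC007192, which spans it, was listed at 0 in shWTAP and not in control.

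Of the genes with the highest enrichments CAPNS1 was called. Its input was 34.3, 34.6 and 31.9 FPKM in control and 26.6, 26.4 and 22.7 FPKM in shWTAP, with no overlap (log2 change -0.40, SE 0.08, limma adjusted p = 0.0441). The call held in 7 of 15 alternatives and was lost when any library other than shWTAP 1 was left out. GNB1 was at 57.4, 55.3 and 52.4 FPKM and at 46.1, 46.7 and 44.2 FPKM, also without overlap, and missed the threshold (limma adjusted p = 0.0641). DHX36, SENP3, CNOT6 and FLVCR1 had limma adjusted p-values from 0.277 to 0.895.

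The gene lists are described by how many of their tested genes had a shared 5' UTR peak and by the calls among these, against 34.6% of all tested genes with such a peak and 4.32% of these called. An unadjusted limma p under 0.05 was reached by 954 of the 3934 tested members. The counts at that p given below for single lists stand against this background and are no near calls. Histone and DNA modifying enzymes had one in 52.5% of genes (32 of 61), ubiquitin ligases and proteasome genes in 52.3% (23 of 44) and haematopoietic transcription factors in 51.6% (16 of 31). Cytosolic ribosomal proteins were at the other end with 16.0% (12 of 75), although their median level of 234.8 FPKM lies in the highest class of genes, where 37.5% were members. The shares are descriptions with no test, and list genes were chosen by hand.

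**Figure D5:**
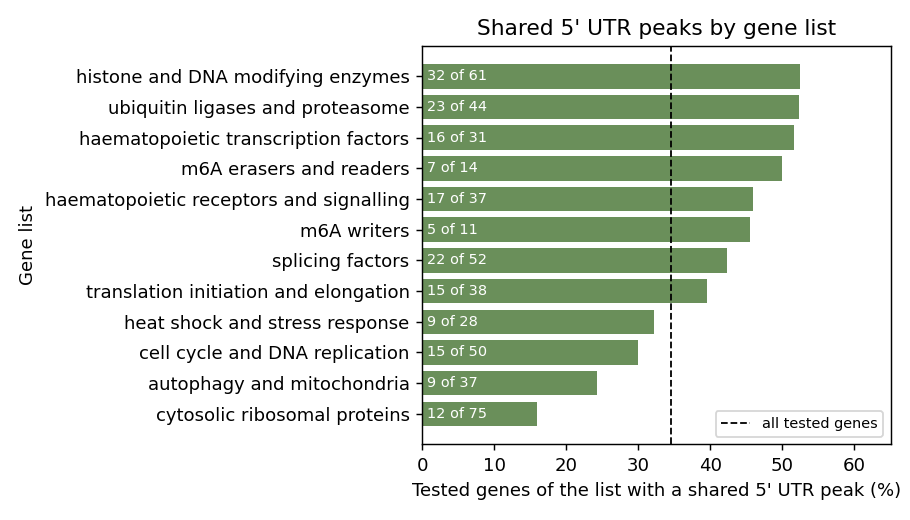
Share of the tested genes of each list (%) that had a shared 5' UTR peak, with the counts in the bars. The dashed line is the 34.6% of all tested genes; histone and DNA modifying enzymes stand at 52.5% and cytosolic ribosomal proteins at 16.0%.

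Among haematopoietic transcription factors 3 of the 16 tested members fell and the others did not pass the test. These 3 calls were lost when any library other than shWTAP 1 was left out and with the replicate block: CBFB was called in 8, FLI1 in 9 and LMO2 in 5 of 15 alternatives, LMO2 being lost after quantile normalization and median centring too. CBFB, the partner of RUNX1 in core binding factor, had the highest enrichment of the list in control, 40.6, and 27.0 in shWTAP. Its input was 17.7, 18.0 and 20.5 FPKM in control and 14.4, 11.6 and 10.9 FPKM in shWTAP, so the groups did not overlap (log2 change -0.58, SE 0.11, limma adjusted p = 0.0397). FLI1, an ETS factor of the megakaryocyte and endothelial lineages, fell from 23.6 ± 0.75 to 17.9 ± 0.50 FPKM (SD, n = 3 each, log2 change -0.38, limma adjusted p = 0.0221). LMO2, a bridging protein of blood transcription complexes, fell from 33.0 ± 1.0 to 26.7 ± 0.067 FPKM (SD, n = 3 each, log2 change -0.30, limma adjusted p = 0.0411). RUNX1 had enrichments of 10.0 and 11.3 over the same 1917 exonic bases, and its level, 23.8 ± 1.6 and 21.2 ± 2.2 FPKM (SD, n = 3 each), did not pass the test (limma adjusted p = 0.325). RUNX2 (9.40 and 5.01), BCL11A (16.9 and 9.65) and CEBPZ (16.1 and 16.3) also had shared peaks at these enrichments and were not called. IKZF2 had enrichments of 14.7 and 16.4 and was below the expression filter.

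Among haematopoietic receptors and signalling genes 17 of 37 tested genes had a shared 5' UTR peak. STAT5A, a transcription factor downstream of cytokine receptors, fell from 31.9 ± 0.78 to 24.5 ± 1.0 FPKM (SD, n = 3 each, log2 change -0.37, SE 0.06, limma adjusted p = 0.0272), a call that held in 8 of 15 alternatives. The single call upward was the uncertain PIK3R2. MAPK3 had the highest enrichment of the list in control, 40.6, and 53.1 in shWTAP. PIK3CA had 22.6 and 27.0, PIK3R1 17.9 and 15.0 at peaks that do not overlap each other, and SPRY1 16.8 and 14.7. None of these 4 was called (limma adjusted p from 0.464 to 0.764). Of the myeloid surface markers, CD33 (3.58 and 3.08), CD34 (4.26 and 5.19) and ANPEP (3.81 and 4.01) had shared 5' UTR peaks. ANPEP, the aminopeptidase CD13, rose from 3.10, 2.89 and 3.08 FPKM to 4.19, 3.98 and 4.71 FPKM, with no overlap (log2 change 0.39, SE 0.08, limma adjusted p = 0.0421), a call that held in 7 of the 14 alternatives that tested it.

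Stress genes are among those in which m6A of the 5' UTR has been studied. Of 28 tested heat shock and stress genes 9 had a shared 5' UTR peak, and 1 of these rose. HSPA8, the constitutive HSP70 chaperone, had enrichments of 9.02 and 9.65, at the authors' peak p-values of 0.0079 and 1.3e-05. It was at 396, 403 and 387 FPKM in control and at 535, 494 and 477 FPKM in shWTAP. Every shWTAP library was above every control library (log2 change 0.34, SE 0.07, limma adjusted p = 0.0397). The call held in 7 of 15 alternatives, and small nucleolar RNA genes lie within HSPA8 on its strand. ATF4, the factor of the integrated stress response whose 5' UTR holds upstream reading frames, had the highest enrichment of the list in control, 22.6, and 31.8 in shWTAP. It was at 185 ± 0.49 FPKM in control against 161 ± 15 FPKM in shWTAP (SD, n = 3 each), which did not pass the test (limma adjusted p = 0.185). HSPA1B, an inducible HSP70 gene with a near-identical copy that can share its reads, had enrichments of 5.89 and 3.67, and DNAJB1, an HSP40 cochaperone, had 12.4 and 6.11. Neither was called (limma adjusted p = 0.281 and 0.0887).

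Of 38 tested translation initiation and elongation genes 15 had a shared 5' UTR peak, and limma called 0 of these, with 2 at an unadjusted p under 0.05. EEF1D, an elongation factor subunit, had enrichments of 126 over 1771 exonic bases and 36.7 over 391 bases, and the control peak overlapped further shWTAP peaks. EEF1A1, the elongation factor that carries aminoacyl-tRNA, had 12.4 and 10.6, and EIF4E, the cap-binding factor, had 10.2 and 6.75. Of the ribosomal proteins with a shared peak, RPS25 had 42.3 and 8.01, RPL30 18.0 and 28.0, RPS13 15.8 and 3.54 and RPS14 5.74 and 4.10. RPS14 was at 236 ± 15 FPKM in control against 182 ± 22 FPKM in shWTAP (SD, n = 3 each), without overlap and short of the threshold (limma adjusted p = 0.0731). Of the 12 limma called 0, with 4 at an unadjusted p under 0.05.

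Among the 32 histone and DNA modifying enzymes with a shared peak KDM4A, a histone lysine demethylase, was the 1 gene called. It was at 15.8, 15.6 and 16.6 FPKM in control and at 12.2, 11.1 and 10.6 FPKM in shWTAP, with no overlap (log2 change -0.46, SE 0.07, limma adjusted p = 0.0208). The call held in 8 of 15 alternatives, and the enrichments were 3.20 and 2.14. The highest enrichments of the list in control were those of KDM2A (59.8 and 9.97), EED (46.0 and 33.8), KDM3B (36.1 and 36.7), KMT2B (28.2 and 20.6), EHMT1 (26.8 and 7.51) and KMT2D (23.7 and 4.75). The last, a histone methyltransferase, was at 19.0 ± 0.30 FPKM in control against 16.0 ± 0.47 FPKM in shWTAP (SD, n = 3 each) and missed the threshold (limma adjusted p = 0.0726). Of the 7 m6A erasers and readers with a shared peak, which include the demethylase ALKBH5 (10.1 and 5.79) and the readers YTHDF2 (6.77 and 4.24), YTHDC1 (4.24 and 6.33) and IGF2BP2 (2.90 and 4.75), limma called 0, with 1 at an unadjusted p under 0.05.

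The remaining lists held few calls. Of the 22 splicing factors with a shared peak limma called 0, with 4 at an unadjusted p under 0.05. Their highest enrichments in the control list were those of HNRNPM (38.4, and 5.17 in shWTAP), HNRNPL (35.6, and 30.2 in shWTAP at a peak that does not overlap it) and HNRNPD (31.0, and 15.0 in shWTAP). Of the 15 cell cycle and DNA replication genes limma called 0, with 4 at an unadjusted p under 0.05. MCM7, a subunit of the replicative helicase, had enrichments of 35.0 and 37.6, and CDK4, a G1 kinase, had 16.9 and 2.89 at peaks that do not overlap each other. CDK6, its close relative, was at 47.8 ± 5.5 and 36.4 ± 6.9 FPKM (SD, n = 3 each), a difference that did not pass the test (limma adjusted p = 0.150). Of the 23 ubiquitin and proteasome genes NEDD4, a ubiquitin ligase, fell from 12.6 ± 1.0 to 8.11 ± 0.88 FPKM (SD, n = 3 each, log2 change -0.57, SE 0.09, limma adjusted p = 0.0236), with enrichments of 4.89 and 8.20 and a call in 8 of 15 alternatives. PSME4, a proteasome activator, had the highest enrichment of that list in control, 73.3, and 10.5 in shWTAP. Of the 9 autophagy and mitochondrial genes SDHA, a subunit of succinate dehydrogenase, fell from 18.2 ± 1.1 to 13.9 ± 0.73 FPKM (SD, n = 3 each, log2 change -0.37, SE 0.07, limma adjusted p = 0.0421). SDHA overlaps AC021087 on its strand, and its call held in 6 of 15 alternatives and was lost after quantile normalization and median centring.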

How the data were processed

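The members and gene lists were chosen with earlier results of these data known. The fold enrichment (the ratio of IP to input in a peak), the p-value and the log10 scores of p and false discovery rate were deposited by the authors, 1 list per condition, per the file headers. FPKM values were deposited by the authors for the 6 inputs, so depth is unknown and a change common to all RNA is invisible. Per the submitters' processing notes, ChIPseeker, HISAT2, HOMER and fastp were among the tools. For the peak caller, pooling of replicates, genome build and strand of counting, the answer is not given in the sources used here. Coordinates matched RefSeq's GRCh38.p14 (99.88% of 20184 genes shared by symbol overlapped).

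Exonic blocks were intersected with bedtools 2.31.1. The input levels were fitted in R 4.3.3 by limma 3.58.1 (lmFit and eBayes with a trend, Benjamini-Hochberg adjustment) on log2(FPKM + 1), shWTAP minus control, over genes at 1 FPKM or more in at least 3 libraries, with no covariate. This scale understates changes of low genes. The fit was checked on simulated data, and the intersection by a base-by-base comparison over part of the lists. Replicate numbers did not pair libraries (correlations of deviations -0.11, 0.17 and -0.14). Named genes were WTAP and the writers, the 10 largest called rises and falls, the 8 highest enrichments per list, up to 6 members per gene list by control enrichment, the edges of the rule and the genes with most members, and the list members called. Of 4958 gene symbols of members, 4041 had a RefSeq start window. IP values per gene were not analysed here, and 1 gene that the naming rule picked is not reported here.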

Additional observations from a re-analysis of the deposited data

How the results depend on the processing

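With a fold enrichment of at least 4 in both lists, 3439 control and 3545 shWTAP members remained, and the other overlap rules kept counts within 1.5 times of 5383 and 5570. The median distance from the start was 141 bases by the midpoint and 0 by the nearest edge. Called member genes numbered 170 (61 higher, 109 lower), against 443 of all 11383 tested genes. With no expression filter they numbered 26, against 82 of 27411. After quantile normalization they numbered 259 (121 higher, 138 lower), against 672 of all tested genes. After median centring they numbered 259 (117 higher, 142 lower), against 662. With the replicate block they numbered 23, against 77, and with 1 library left out 11 to 999, against 46 to 2751. Without the 2 libraries rich in mitochondrial mRNA they numbered 1137, against 3142, and with that level as a block 750, against 1938. Both of these alternatives were chosen after seeing the data. The replicate numbers do not pair the libraries. The cause of these differences was not tested. Start windows held GGAC in 22.0% and a word on either strand in 68.1%, against 41.0% for a word on the gene's strand. A word on either strand was in 67.15% of windows inside 5' UTR peaks of 1 list. It was in 69.8% of windows of tested genes with no 5' UTR peak and in 76.0% of all windows. WTAP stayed called in all 15 alternatives, with limma adjusted p from 0.00171 to 0.0498. The members' median log2 change ran from -0.062 to -0.001, and that of all tested genes from -0.048 to 0.0066. Quantile normalization and median centring bring the library medians level, so nothing is read from the sign there. Depth is unknown, and no peak has a replicate.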
